A study of Homo sapiens with 6 samples.

Results

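Transcripts of 10 cytosolic and mitochondrial heat shock genes were examined in HK-2 cells, an immortalized line of human kidney proximal tubular epithelial cells. The genes were HSPA8, HSPA1A, HSPA1B, HSPH1, DNAJB1, HSP90AA1, HSPB1, HSPD1, HSPE1 and HSF1, each taken as the row of the deposited table that carries its symbol. They are 10 of the 58825 genes of that table, and all 10 were among the 19510 genes tested. Poly(A) RNA had been sequenced from 3 Control libraries, labelled as untreated, and from 3 libraries of cells given 25 μg/ml OX-LDL, oxidized low-density lipoprotein, for 48 h. The study starved its HK-2 cells in low serum before adding OX-LDL, and no time is given for Control. The comparison asks what OX-LDL changed in these cells, and each value in the table is an estimated count or an FPKM, the fragments per kilobase of a gene's transcript on a common scale of library size. The study describes its cell experiments as independent repeats, but the labels tie no library to a culture of its own. The p-values measure the spread between the libraries of a group, and how much of it is technical is not given.

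Heat shock proteins bind unfolded or newly made proteins and help them to fold. In the cytosol, an HSP70 receives its client from a J-domain protein (HSP40), releases it with the help of an HSP110 exchange factor and can hand it on to HSP90, while small heat shock proteins hold unfolded clients until they are needed. In the mitochondrial matrix, HSP60 forms a closed folding chamber with HSP10. The transcription factor HSF1, held inactive by chaperones in unstressed cells, binds repeats of the bases GAA and TTC in the promoters of many of these genes when unfolded proteins accumulate. Proximal tubule cells of the kidney are known to raise heat shock proteins after ischaemic or toxic injury.

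In OX-LDL, 5 of the 10 genes passed an adjusted p-value of 0.05 and all 5 were higher. They were HSPA8, HSPA1B, HSP90AA1, HSPE1 and HSPD1, with fitted folds between 1.31 and 1.98. HSPA1B is a near-identical copy of HSPA1A, and the summed pair did not pass with all 6 libraries (adjusted p-value 0.359 by edgeR). HSPB1, DNAJB1, HSPH1, HSPA1A and HSF1 did not pass. Of all genes tested, 15.3% passed in either direction and 7.91% passed as higher and 7.42% as lower, against 50.0%, all higher, of these 10. All 10 had a mean above 1 FPKM. Calls were a larger share at a minimum mean of 1 FPKM, where 3152 of 12259 genes passed, 1669 of them as higher. The 10 genes were chosen with earlier results of these data known, so their share is a description with no test. The 3 OX-LDL libraries lay above the 3 Control libraries for 6 of the 10 genes, which was so for 16.8% of all genes tested, and none of the 10 lay below, which was so for 20.5%. In either direction, 37.2% of all genes tested did not overlap. The median log2 fold change of the 10 genes was 0.30, against -0.004 over all genes tested. None reached a fold of 2, which together with the adjusted p-value was met by 3.91% of all genes tested. Because RNA was taken from whole cultures, a change in a gene's RNA per cell and a change in the cells that make it cannot be told apart.

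The promoter stretches that carry the recognition letters of HSF1 are shown first because they separate the genes in a way the comparison did not use. RefSeq promoter windows of build GRCh38.p14, from 250 bases before to 50 bases after a start, were found for 9 of the 10 genes, all but HSF1. GAANNTTC or TTCNNGAA, each the same on both strands, lay in a window of 7 of the 9 and in 16.2% of the 27305 genes in the table. Longer forms with a further GAA or TTC unit, alternating and again 2 bases on, which hold the shorter forms within them and were searched on both strands, lay in a window of 3 of the 9 and in 0.608% of all genes. The stretches below are 30 bases each, read 5′ to 3′ on the strand of the gene, with the matched letters in capitals.

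HSPA1A, chr6:31815426-31815455, plus strand: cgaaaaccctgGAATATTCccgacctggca
HSPA1B, chr6:31827622-31827651, plus strand: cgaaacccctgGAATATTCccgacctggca
HSPA8, chr11:123062346-123062375, minus strand: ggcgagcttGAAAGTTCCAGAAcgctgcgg
HSPA8, chr11:123062171-123062200, minus strand: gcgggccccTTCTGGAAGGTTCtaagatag
HSP90AA1, chr14:102087104-102087133, minus strand: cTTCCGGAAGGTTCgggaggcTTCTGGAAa
HSPD1, chr2:197500061-197500090, minus strand: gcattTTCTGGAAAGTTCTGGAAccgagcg
DNAJB1, chr19:14518456-14518485, minus strand: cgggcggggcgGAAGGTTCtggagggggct
DNAJB1, chr19:14518426-14518455, minus strand: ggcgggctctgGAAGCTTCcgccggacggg
HSPB1, chr7:76302480-76302509, plus strand: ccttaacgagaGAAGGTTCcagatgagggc

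HSPA8, HSP90AA1 and HSPD1 were the 3 genes with a longer form, and HSPA8 held it in each of its 2 stretches. The same 3 had the highest FPKM of the 10 in Control and in OX-LDL. Among the relatives given further below, genes with a longer form varied widely in level. Their Control means ran from 0.0653 FPKM for HSPA6 to 490 FPKM for HSP90AB1. HSPA1A and HSPA1B held the same 8 matched letters at almost the same distance before the start, and their 250 bases before the start were identical at 93.6% of aligned positions. HSPH1 and HSPE1 had none of these letters in their own windows. The HSPD1 match lies 55 bases from the start that the authors' table gives for HSPE1, which runs in the opposite direction, and it lies inside the span that the same table gives for HSPD1. HSP90AA1, HSPD1 and DNAJB1 each had more than 1 window, and the stretches come from a start inside the span that the authors' table gives for the gene. These are matches of letters, and binding was not measured.

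The libraries held 62561347 to 76797607 deposited counts each, and 5.25% to 5.69% of them fell on genes of the mitochondrial genome. The cells carried the epithelial genes KRT8, KRT18, KRT19 and EPCAM, while CDH1 was under 1 FPKM. Of 9 proximal tubule genes only MME and GGT1 reached 1 FPKM, and the defining LRP2, CUBN and AQP1 did not. Endothelial genes were under 1 FPKM in 5 of 5 cases, leukocyte genes in 4 of 5 (all but CD68) and fibroblast genes in 4 of 5 (all but LUM). The summed epithelial level was 120 to 145 FPKM in Control and 174 to 224 FPKM in OX-LDL, and that of the leukocyte list 3.14 to 7.74 FPKM and 9.16 to 14.0 FPKM, almost all of it CD68. The summed fibroblast level was 10.1 to 12 FPKM in Control and 8.75 to 14.1 FPKM in OX-LDL. Summed levels of the proximal tubule genes were 7.30 to 22.6 FPKM and 18.9 to 21.6 FPKM, and those of the endothelial genes stayed under 0.122 FPKM in Control and 0.0835 in OX-LDL. Whether any of these shifts had a part in the values of the heat shock genes was not tested.

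The library OX-LDL 2 stood apart for HSPA1A. It was the lowest of its group for 8 of the 10, and for 37.4% of all genes tested. For 6 of the 10 it lay between the Control mean and both other OX-LDL libraries, as it did for 28.1% of all genes. HSPA1A was among the 3 genes, with IER2 and DMAC2L, that had less than 0.2 times the count of every other library there, and other libraries had 1 to 6 genes of that kind. Without OX-LDL 2, 6 of the 10 genes passed the threshold in place of 5, HSPA1A being the added one.

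**Figure D1:**
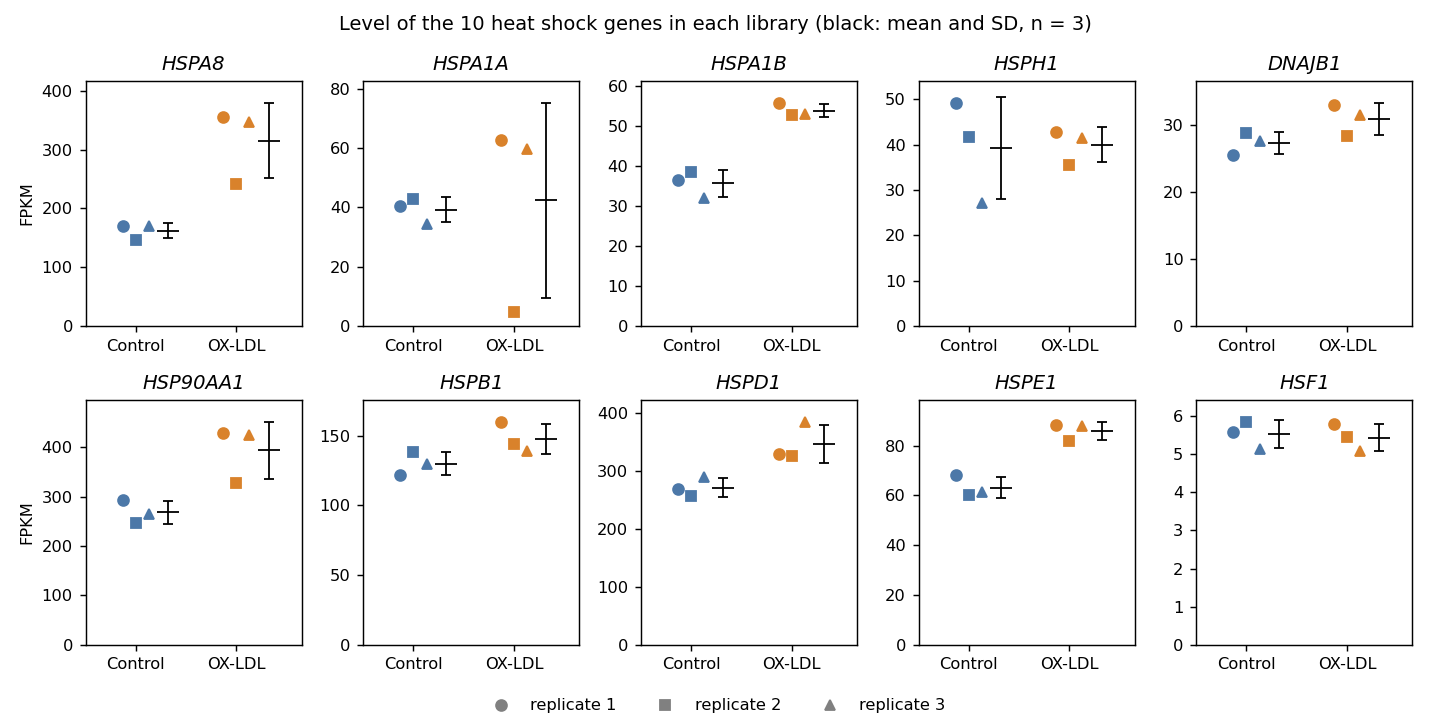
FPKM (vertical axes, from 0) of the 10 genes in each library, with Control in blue, OX-LDL in orange, a symbol for each replicate number and the group mean and SD (n = 3) in black. HSPA8, HSPA1B, HSP90AA1, HSPB1, HSPD1 and HSPE1 do not overlap between the groups, and HSPA1A in OX-LDL 2 sits at 4.57 FPKM, far below its other 5 points.

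HSPA8 encodes HSC70, the HSP70 that cells make at all times. Its gene (ENSG00000109971) lies on the minus strand at chr11:123057489-123063230. In Control the 3 libraries had 170, 147 and 170 FPKM, and in OX-LDL they had 356, 242 and 348 FPKM. All OX-LDL libraries were higher than all Control libraries, and OX-LDL 2 was nearest to them. The means were 162 ± 13.5 FPKM (SD, n = 3) and 315 ± 63.6 FPKM (SD, n = 3). HSPA8 rose by 0.99 on the log2 scale (SE 0.16, 95% interval 0.62 to 1.36), a fold of 1.98, with an adjusted p-value of 0.0103 by edgeR. This was the largest fitted change of the 10 genes. Over all 16 alternatives it stayed past the threshold, with log2 fold changes of 0.90 to 1.15. By its mean over the 6 libraries HSPA8 ranked 75 in FPKM among the genes tested. The 3 small nucleolar RNA genes, SNORD14C, SNORD14D and SNORD14E, lie within it on the same strand and had at most 82 counts in a library.

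HSPA1A and HSPA1B encode the stress-inducible HSP70 and lie near each other on chromosome 6. HSPA1A (ENSG00000204389, chr6:31815464-31817946, plus strand) had 40.4, 42.9 and 34.5 FPKM in Control and 62.9, 4.57 and 59.6 in OX-LDL. OX-LDL 1 and OX-LDL 3 were above every Control library, and OX-LDL 2 was below every one. The fitted change was 0.14 (SE 0.78, 95% interval -1.71 to 1.98) with an adjusted p-value of 0.930 by edgeR. Without OX-LDL 2 it was 0.67 with an adjusted p-value of 0.0148.

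HSPA1B (ENSG00000204388, chr6:31827738-31830254, plus strand) had 36.5, 38.5 and 31.9 FPKM in Control and 55.6, 52.8 and 53.0 in OX-LDL. Its groups did not overlap, and OX-LDL 2 was close to its fellows here. The means were 35.7 ± 3.38 FPKM and 53.8 ± 1.58 FPKM (SD, n = 3 each). HSPA1B rose by 0.63 (SE 0.08, 95% interval 0.42 to 0.83), a fold of 1.54, with an adjusted p-value of 0.00681 by edgeR. It passed in all 16 alternatives, with log2 fold changes of 0.55 to 0.67. None of these alternatives changed how reads were split between HSPA1B and HSPA1A, which is taken up below.

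The coding sequences of HSPA1A and HSPA1B were identical at 1919 of 1923 positions in GENCODE release 29. Of the windows of 150 bases, the length of a read, in the HSPA1A coding sequence, 87.9% occur without a mismatch in HSPA1B. Over the whole HSPA1A transcript 67.1% of such windows do. Counting could thus split the reads of the pair, and each gene's own value is uncertain. HSPA1A held 51.6% to 52.7% of the counts of the pair in the other 5 libraries and 7.90% in OX-LDL 2. There, HSPA1A had 1030 counts and HSPA1B 12064. The summed pair had a CPM, its count scaled to the library total, of 227, 240 and 195 in Control and 349, 171 and 332 in OX-LDL. OX-LDL 2 was thus below every Control library for the sum as well. The sum changed by 0.39 (SE 0.26, 95% interval -0.22 to 1.01), with an adjusted p-value of 0.359 by edgeR, and by 0.66 with an adjusted p-value of 0.0132 without OX-LDL 2. The cause of the low HSPA1A value in OX-LDL 2 was not tested.

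**Figure D2:**
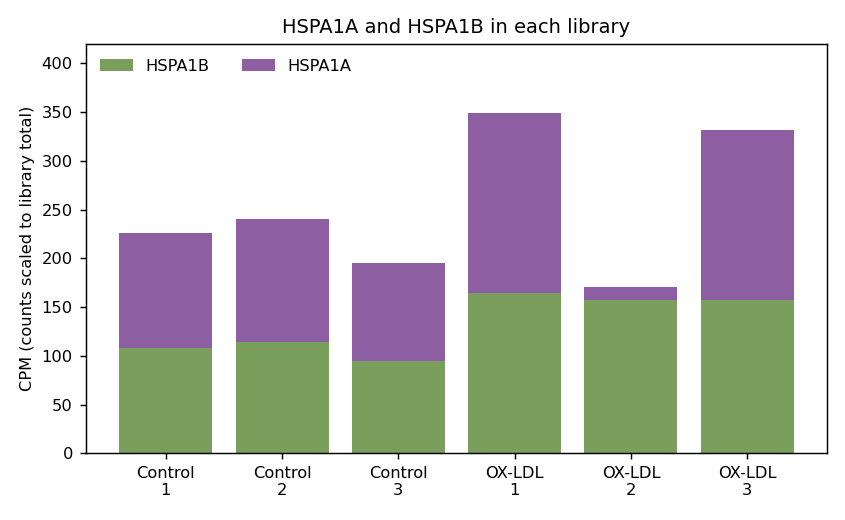
CPM, the deposited counts scaled to the library total (vertical axis, from 0), of HSPA1B (green) and HSPA1A (purple, stacked on it) in each library. HSPA1B is higher in all 3 OX-LDL libraries, and in OX-LDL 2 the HSPA1A part shrinks to 7.90% of the pair's counts.

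DNAJB1 encodes the J-domain protein, or HSP40, that works with the stress-inducible HSP70. It lies at chr19:14514769-14529308 on the minus strand (ENSG00000132002). It had 25.6, 28.9 and 27.6 FPKM in Control and 33.0, 28.4 and 31.5 in OX-LDL. OX-LDL 2 lay within the Control range, so the groups overlapped. The fitted change was 0.21 (SE 0.08, 95% interval 0.02 to 0.40), with an unadjusted p of 0.0368 and an adjusted p-value of 0.136 in the edgeR fit. HSPH1 encodes HSP105, an HSP110 that frees nucleotide from HSP70, and lies at chr13:31134974-31162388 on the minus strand (ENSG00000120694). It had 49.1, 41.7 and 27.1 FPKM in Control and 42.8, 35.6 and 41.5 in OX-LDL. The Control libraries spread more widely than the OX-LDL libraries and enclosed them. The fitted change of HSPH1 was 0.05 (SE 0.21, 95% interval -0.44 to 0.55), an interval that does not exclude the change seen for HSPE1.

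HSP90AA1 encodes the stress-inducible form of cytosolic HSP90. It lies at chr14:102080738-102139699 on the minus strand (ENSG00000080824). It had 293, 247 and 264 FPKM in Control and 429, 327 and 426 in OX-LDL. The groups did not overlap, and OX-LDL 2 was again nearest to Control. The means were 268 ± 23.3 FPKM and 394 ± 58.3 FPKM (SD, n = 3 each), the highest of the 10 genes in OX-LDL. HSP90AA1 rose by 0.59 (SE 0.13, 95% interval 0.29 to 0.88), a fold of 1.5, with an adjusted p-value of 0.0254 by edgeR. The call was lost when Control 2, Control 3, OX-LDL 1 or OX-LDL 3 was left out, with log2 fold changes of 0.52 to 0.57 and adjusted p-values of 0.0727 to 0.0882.

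HSPB1 encodes HSP27, a small heat shock protein that holds unfolded clients and binds actin. It lies at chr7:76302673-76304292 on the plus strand (ENSG00000106211). It had 122, 138 and 130 FPKM in Control and 160, 144 and 139 in OX-LDL. The groups did not overlap, but OX-LDL 3 was close to Control 2. The fitted change was 0.22 (SE 0.08, 95% interval 0.04 to 0.40), with an unadjusted p of 0.0245 and an adjusted p-value of 0.105 in the edgeR fit. In no alternative did HSPB1 pass the threshold, and its adjusted p-values ran from 0.0756 to 0.272.

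HSPD1 and HSPE1 encode HSP60 and its lid HSP10, and they lie head to head on chromosome 2, overlapping in the authors' table. HSPD1 (ENSG00000144381, chr2:197486584-197500274, minus strand) had 268, 256 and 288 FPKM in Control and 329, 325 and 384 in OX-LDL. The groups did not overlap, and OX-LDL 3 was the highest. HSPD1 rose by 0.38 (SE 0.09, 95% interval 0.17 to 0.60), a fold of 1.31, with an adjusted p-value of 0.0329 by edgeR. The call was lost when any library but OX-LDL 2 was left out, with log2 fold changes of 0.30 to 0.43 and adjusted p-values of 0.0528 to 0.106.

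HSPE1 (ENSG00000115541, chr2:197500140-197503382, plus strand) had 68.0, 60.1 and 61.3 FPKM in Control and 88.4, 81.9 and 87.7 in OX-LDL. Its groups did not overlap and the 3 OX-LDL libraries lay close together. HSPE1 rose by 0.48 (SE 0.08, 95% interval 0.29 to 0.67), a fold of 1.39, with an adjusted p-value of 0.0125 by edgeR. Without OX-LDL 3 the adjusted p-value was 0.0514. The readthrough gene HSPE1-MOB4, on the same strand, was given 754 counts in Control 3, 741 in OX-LDL 2 and none elsewhere, so reads may have been split with it.

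HSF1, the transcription factor of the heat shock response, is controlled mainly at the level of its protein. Its gene lies at chr8:144291591-144314720 on the plus strand (ENSG00000185122) and ranked 6197 in FPKM among the genes tested. It had 5.6, 5.86 and 5.15 FPKM in Control and 5.79, 5.47 and 5.08 in OX-LDL. The 2 groups covered almost the same range. The fitted change was 0.01 (SE 0.09, 95% interval -0.21 to 0.22), with an adjusted p-value of 0.961 by edgeR. Under other settings the value lay between -0.04 and 0.05, on either side of 0.

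Summed over the 10 genes, the level was 1078, 1006 and 1039 FPKM in Control and 1563, 1247 and 1575 in OX-LDL. Each OX-LDL library was above each Control library. As a share of all FPKM this was 0.437% ± 0.0164 in Control and 0.613% ± 0.0824 in OX-LDL (SD, n = 3 each). HSPA8 made up 36.4% of the difference between the group means, HSP90AA1 29.9% and HSPD1 17.9%. HSPE1 added 5.4%, and HSPA1B and HSPB1 each 4.30%. The 7 cytosolic chaperone genes together went from 702 to 1024 FPKM, and HSPD1 with HSPE1 from 334 to 432 FPKM. These sums are descriptions with no test.

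**Figure D3:**
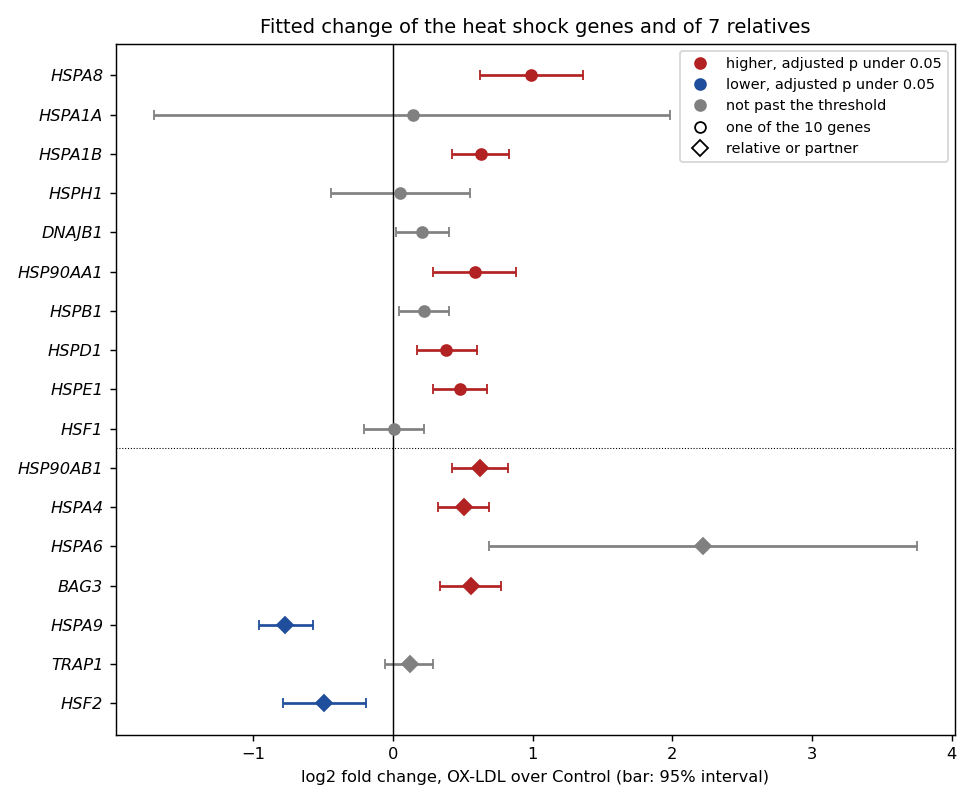
Fitted log2 fold change of OX-LDL over Control (horizontal axis) with its 95% interval for the 10 genes (circles) and for 7 relatives or partners (diamonds), coloured by direction where the adjusted p-value was under 0.05. HSPA8 is highest of the 5 coloured circles at 0.99, HSPA1A has an interval from -1.71 to 1.98, and HSPA9 and HSF2 lie to the left of 0.

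The other genes of the pathway were read from 8 lists of 76 relatives and partners, chosen with earlier results of these data known. Their shares of calls are descriptions with no test. Of the 72 genes tested, 18 were higher and 8 were lower, and their median log2 fold change was 0.09. This is 36.1% called, against 15.3% of all genes. Of these calls, 10 of the higher and 4 of the lower held when each library was left out in turn. The numbers of higher calls fell to 10 without Control 2 and to 10 without OX-LDL 3, and the numbers of lower calls fell to 4 without Control 1, Control 2, OX-LDL 1 or OX-LDL 3. DNAJA4, HSPB3, HSPB6 and HSPB7 were too low to be tested. At a minimum mean of 1 FPKM, 3152 of 12259 genes passed, a larger share than the 15.3% of all genes.

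The cytosolic relatives of HSP70 and partners of HSP90 held 10 of the 18 higher calls and no lower call. Of 8 HSP70 and HSP110 relatives, 3 rose and none fell, with a median log2 fold change of 0.46. This is 37.5% called, against 15.3% of all genes. HSPA4, an HSP110 exchange factor, rose by 0.51 (SE 0.08) with an adjusted p-value of 0.0100 by edgeR, and HSPA12A, a distant HSP70 relative, rose by 0.61 (SE 0.10) with 0.0119. HSPA14, an HSP70 found at ribosomes, rose by 0.66 (SE 0.12) with 0.0156, and its call was lost without Control 2 (0.0613) or OX-LDL 3 (0.0549). HSPA6, a strictly stress-induced HSP70, was barely present, at 0.0591, 0.107 and 0.0294 FPKM in Control and 0.319, 0.132 and 0.476 in OX-LDL. Its fitted change was 2.22 (SE 0.64) with an adjusted p-value of 0.0634, which was 0.0395 without OX-LDL 2 and 0.00955 with DESeq2.

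Of 10 genes of HSP90 and its cochaperones, 7 rose and none fell, with a median of 0.33. This is 70.0% called, against 15.3% of all genes. HSP90AB1, the constitutive HSP90, had 491, 472 and 507 FPKM in Control and 776, 653 and 781 in OX-LDL, with no overlap, and rose by 0.62 (SE 0.08) with an adjusted p-value of 0.00690 by edgeR. AHSA1, which speeds the ATPase of HSP90, rose by 0.51 and PTGES3, the HSP90 cochaperone p23, by 0.99. These 3 passed whichever library was left out. STIP1, FKBP4, FKBP5 and PPID, named here after their values had been seen, also rose, by 0.30 to 0.48, and each lost its call without Control 2, OX-LDL 1 or OX-LDL 3, with adjusted p-values up to 0.121. The FPKM ratio of HSP90AA1 to HSP90AB1 was 0.597, 0.523 and 0.520 in Control and 0.553, 0.50 and 0.546 in OX-LDL. The ratios overlapped, and an exact two-sided permutation test gave p = 0.80, adjusted to 1.0 over 3 ratios, where the smallest p that 3 against 3 libraries can give is 0.10.

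J-domain proteins as a family bring clients to HSP70. Of 11 tested genes listed as those of the cytosol, DNAJC8 of the spliceosome among them, 2 rose and none fell. These are 18.2% called against 15.3% of all genes, and the median was 0.02. DNAJB4, close to DNAJB1 in sequence, rose by 0.54 (SE 0.09) with an adjusted p-value of 0.0108 by edgeR. DNAJC2, the J-domain partner of HSPA14 at ribosomes, rose by 0.51 with 0.0263 but lost its call when any library but OX-LDL 2 was left out (0.0593 to 0.0946). DNAJC8, a J-domain protein of the spliceosome, changed by -0.24 with an adjusted p-value of 0.118. Of 8 nucleotide exchange and ubiquitin cochaperones, 1 rose and 1 fell, with a median of -0.13. They make 25.0% called, against 15.3% of all genes. At a minimum mean of 1 FPKM, which all 8 reached, about the same share passed, 3152 of 12259 genes. BAG3, which links HSP70 and HSPB8 to autophagy, had 10.4, 11 and 11.1 FPKM in Control and 16.9, 14.1 and 15.8 in OX-LDL. It rose by 0.56 (SE 0.09) with an adjusted p-value of 0.0111. BAG1 fell by 0.58 with 0.0383, a call lost when any library but OX-LDL 2 was left out (0.0829 to 0.119), and BAG4 changed by -0.20 with 0.261.

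Of 4 tested genes listed as small heat shock proteins, 1 rose and 1 fell, with a median of -0.13. This is 50.0% called, against 15.3% of all genes. HSPB11 rose by 0.69 (SE 0.09) with an adjusted p-value of 0.00605 by edgeR, and no other gene of this list passed as higher. HSPB11 is now called IFT25 and is known as a part of the transport machinery of cilia. HSPB8, the partner of BAG3, fell by 0.47 with 0.0331, a call lost when any library but Control 3 was left out (0.0607 to 0.114). HSPB2 changed by -0.61 (SE 0.28) with 0.198. The CCT chaperonin folds actin and tubulin, and prefoldin delivers them to it. Of 13 genes of CCT and prefoldin, 4 rose and 1 fell, with a median of 0.17. This is 38.5% called, against 15.3% of all genes. CCT6A rose by 0.50 and CCT4 by 0.52, with adjusted p-values of 0.00690 and 0.00840, and the prefoldin subunit PFDN2 fell by 0.81 with 0.00746. These 3 calls held whichever library was left out.

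**Figure D4:**
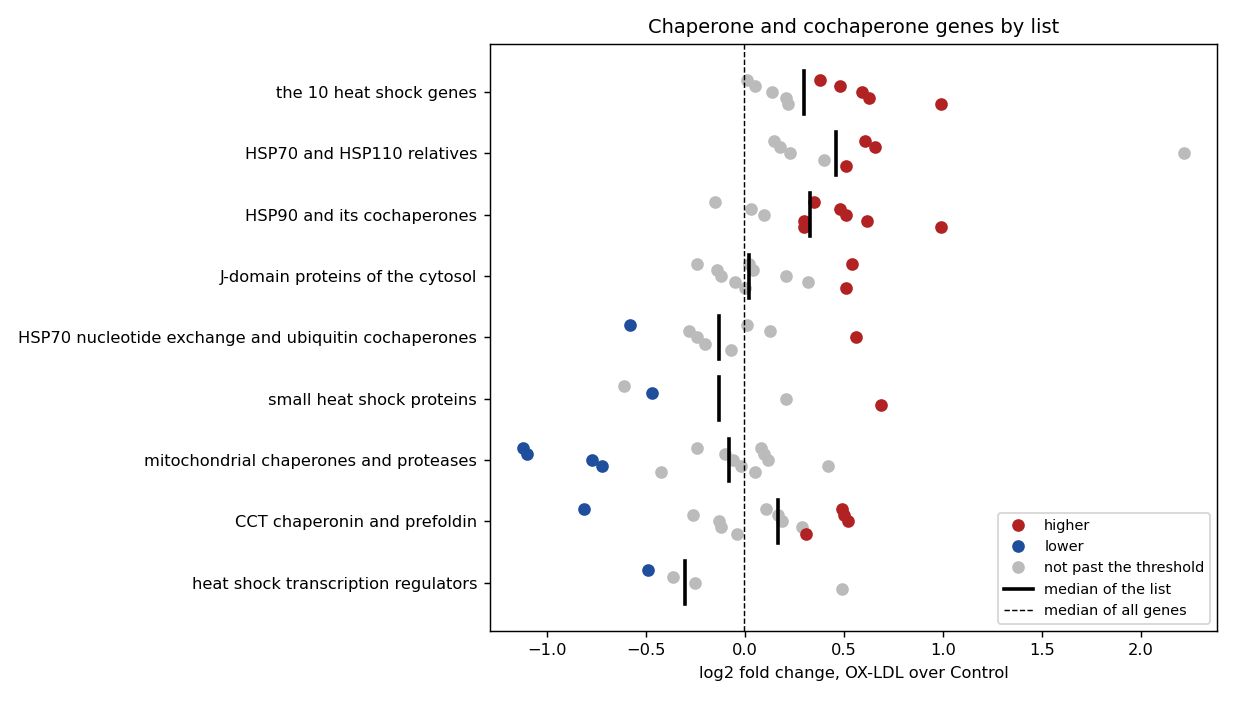
Log2 fold change of OX-LDL over Control (horizontal axis) of each tested gene in the 10 heat shock genes and in 8 lists of relatives and partners, red where higher and blue where lower at an adjusted p-value under 0.05, with each list's median as a black bar. The HSP90 list has 7 red points and a median of 0.33, and the mitochondrial list has 4 blue points and a median of -0.08.

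Beside HSPD1 and HSPE1, the mitochondrial list held 14 chaperones and proteases. None rose, 4 fell and 10 did not pass, with a median of -0.08. This is 28.6% called, all lower, while 7.91% of all genes passed as higher and 7.42% as lower. At a minimum mean of 1 FPKM, which all 14 reached, the shares were larger. There 3152 of 12259 genes passed, 1483 of them as lower. HSPA9, the mitochondrial HSP70 that pulls proteins into the matrix and hands them to HSP60, had 79.5, 79.8 and 87.5 FPKM in Control and 51.9, 46.1 and 43.8 in OX-LDL. The groups were far apart, and HSPA9 fell by 0.77 (SE 0.08) with an adjusted p-value of 0.00314 by edgeR.

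GRPEL2, a nucleotide exchange factor of HSPA9, had 2.17, 2.52 and 2.57 FPKM in Control and 1.03, 1.11 and 1.16 in OX-LDL, and fell by 1.1 (SE 0.13) with an adjusted p-value of 0.00478. LONP1, a protease of the matrix, had 34.1, 32.8 and 43.2 FPKM in Control and 14.7, 19.3 and 15.7 in OX-LDL, and fell by 1.12 (SE 0.15) with 0.00649. All 3 calls held whichever library was left out. The fourth, HTRA2, a protease of the space between the membranes that was named after its values had been seen, fell by 0.72 with 0.0248 and lost its call without Control 1, Control 2, OX-LDL 1 or OX-LDL 3, with adjusted p-values up to 0.0889. TRAP1, the mitochondrial HSP90, changed by 0.12 (SE 0.07) with 0.334. GRPEL1, a more abundant relative of GRPEL2 that was also named after its values had been seen, did not fall. It had 5.45, 9.63 and 5.84 FPKM in Control and 12.6, 6.53 and 8.23 in OX-LDL. Its groups overlapped, and it changed by 0.42 (SE 0.3) with an adjusted p-value of 0.396 by edgeR.

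**Figure D5:**
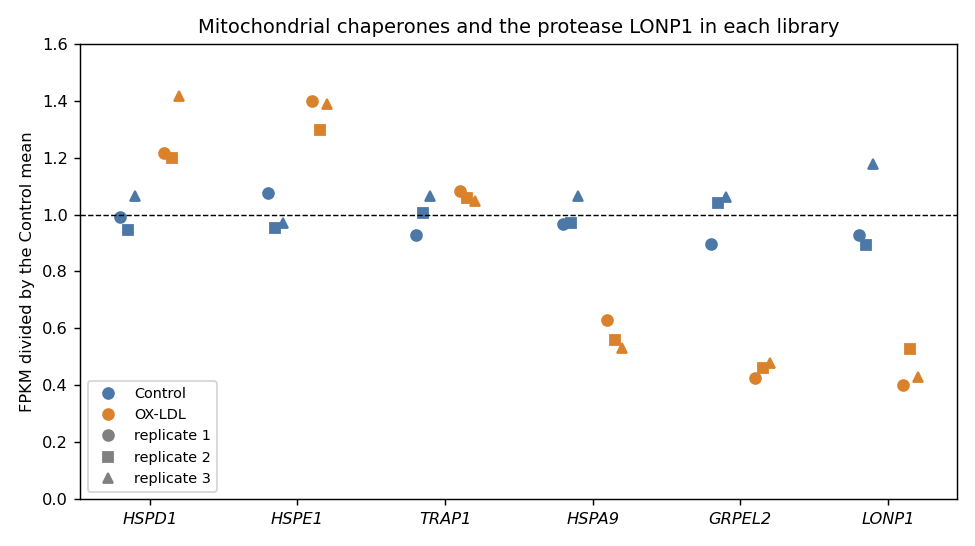
FPKM of 6 mitochondrial genes in each library, divided by the gene's Control mean (vertical axis, from 0; dashed line at 1), with Control in blue and OX-LDL in orange. All OX-LDL points of HSPD1 and HSPE1 lie above the Control points, and all those of HSPA9, GRPEL2 and LONP1 lie below.

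The FPKM ratio of HSPD1 to HSPE1 was 3.95, 4.27 and 4.70 in Control and 3.72, 3.97 and 4.37 in OX-LDL. The ratios overlapped (exact two-sided permutation test, p = 0.50, adjusted to 1.0). The ratio of HSPD1 to HSPA9, chosen after its values had been seen and so not tested, was 3.37, 3.21 and 3.29 in Control and 6.34, 7.05 and 8.75 in OX-LDL. Its mean went from 3.29 to 7.38, and the groups were far apart.

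Among regulators of the heat shock response, none of 4 rose and 1 fell, with a median of -0.30. With so few genes this 1 call is 25.0%, against 15.3% of all genes. HSF2, a relative of HSF1 that can bind with it, had 11.2, 13.2 and 9.92 FPKM in Control and 7.73, 8.68 and 7.40 in OX-LDL. The groups did not overlap, and HSF2 fell by 0.49 (SE 0.13) with an adjusted p-value of 0.0437 by edgeR. The call was lost without Control 1, Control 2, OX-LDL 1 or OX-LDL 3, with adjusted p-values of 0.10 to 0.140. HSBP1, a small protein that binds HSF1, changed by -0.36 with 0.0695, which was 0.00964 without OX-LDL 2, and HSF2BP, named for its binding to HSF2, changed by 0.49 with 0.195.

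The shorter or longer letters of the HSF1 motif lay in promoter windows of 19 of the 61 relatives and partners in the RefSeq table, and a longer form in 5 of the 61. The 5 were HSP90AB1, HSPA6, CHORDC1, DNAJA1 and DNAJB6. HSP90AB1 rose, as given above. DNAJA1 changed by 0.04, DNAJB6 by -0.12 and CHORDC1 by -0.15, with adjusted p-values of 0.788, 0.632 and 0.588. HSPA9, which fell, held TTCNNGAA in its window. So genes with these letters were found among those that rose, those that fell and those that did not pass, and no test of the letters against the change was made.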

How the data were processed

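Per the labels, poly(A) RNA was made into dUTP-marked libraries and sequenced as pairs of 150-base reads. The submitters' processing notes name cutadapt 1.9, HISAT2 2.0.4, StringTie 1.3.4d, edgeR, DESeq2 and GRCh38, with no order or role, and whether counting used the strand is not given in the sources used here. The deposited estimated counts were whole numbers not scaled for library size, and were used as deposited. The FPKM values were scaled by the authors, who listed every count of 0 at 0.0001 FPKM. Values at 4, 8 and 12 counts were 3.26, 2.95 and 2.13 times as frequent as their neighbours, so about 4 deposited counts may stand for 1 read pair. GENCODE release 29 has 58552 of the identifiers, 81.2% of them at the same position. Members and lists were chosen with earlier results of these data known.

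The main test was edgeR 4.0.16 (R 4.3.3) with TMM factors, glmQLFit and glmQLFTest on group alone, over the 19510 genes whose mean FPKM was 0.1 or more, with Benjamini-Hochberg adjustment over all of them and a threshold of 0.05. HSPA14 names 2 rows, of which ENSG00000187522 was used. Of each list, at most the 3 genes with the smallest p-values and at least 1 FPKM were named, with HSP90AB1, HSPA9, TRAP1, HSPA6, BAG3 and HSF2. Chi-square per gene between libraries of a group was 52.0 to 89.6, so no 2 libraries of a group were the same library. Each tool was first tested on simulated counts of 19506 genes. In these, 67, 67 and 66 genes, drawn from all levels tested, had changes of 1.5-fold, 2-fold and 4-fold. There edgeR found 4.5% of changes of 1.5-fold, 26.9% of 2-fold and 59.1% of 4-fold, with 5 false calls among 65. DESeq2 found 31.3%, 49.3% and 75.8%, with 53 false calls among 157. For limma the values were 1.5%, 14.9% and 51.5%, with 6 among 51. Far fewer genes changed there than the 2991 that passed in the data, and most of the heat shock genes rank high in FPKM. These shares therefore do not give the power for the heat shock genes. A gene that did not pass may still have changed. DESeq2 1.42.0, limma 3.58.1 with pseudocounts of 0.1 and 1, other scalings, other minimum levels, counts divided by 4, a replicate block and leaving out each library were the alternatives. Motifs were searched in RefSeq promoter windows of GRCh38.p14. The FPKM ratios were compared by exact permutation tests.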

Additional observations from a re-analysis of the deposited data

How the results depend on the processing

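In the 10 alternatives that kept all libraries, the same number of the heat shock genes, 5, passed. Leaving out each library in turn gave 2 to 6 of them, 10 to 21 higher and 4 to 8 lower relatives and partners, and 0.23 to 0.66 for the summed HSPA1A and HSPA1B, 0.66 being the value without OX-LDL 2. The change of HSPA1A, which did not pass, turned to -0.59 and -0.53 with limma at pseudocounts of 0.1 and 1 and to -0.39 with the replicate block, and lay between -0.25 and 0.67 when a library was left out. For HSPH1 that range was -0.15 to 0.26 and for HSF1 -0.04 to 0.05. HSF1 was also -0.02 with limma at both pseudocounts and with library sizes only, and -0.0023 with no minimum level. The log2 difference of the HSPA1A to HSPA1B ratio ran from -1.82 to 0.04 when a library was left out, and that of HSP90AA1 to HSP90AB1 from -0.07 to 0.03. The cause of these shifts was not tested. Over all genes, calls went from 2991 to 1636 with the replicate block, to 1796, 1161 and 1993 without Control 1, 2 and 3, and to 1262 and 1163 without OX-LDL 1 and 3. Same-numbered libraries deviated from their group means with correlations of -0.084, -0.031 and -0.002, no library correlated best with its own number, and so the numbers were not taken as pairs. Under the block 13 relatives were higher and 6 lower, and of the named ones HSPA14, BAG1 and HSPB8 did not pass (adjusted p-values of 0.0516, 0.0579 and 0.0565 by edgeR). With no minimum level, BAG1 and HSF2 did not pass (0.0504 and 0.0602). With 3 libraries a group, the interval of HSPA1A holds the changes of all 5 genes that passed, and that of HSPH1 holds those of HSPD1 and HSPE1 but not those of HSPA8, HSPA1B and HSP90AA1.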
